A study of Mus musculus with 4 samples.

Results

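Satellite cells, the muscle stem cells (MuSCs) that lie between the myofiber and its basal lamina, are recognized and sorted by proteins on their surface. The genes described here are 10 that encode such surface proteins (Calcr, Cd34, Chodl, Vcam1, Sdc3, Sdc4, Cxcr4, Ncam1, Megf10 and Ngfr). They were chosen by name, as known markers of quiescent satellite cells, and all 10 were among the 19353 genes in the count table. The question was how the transcripts of these markers differed between MuSCs of sham-operated muscle and MuSCs of overloaded muscle.

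All cells came from Pax7-CreERT2:Rosa-YFP mice, in which Cre recombinase is made in Pax7-expressing cells, becomes active after tamoxifen and switches on yellow fluorescent protein (YFP) for good, so that descendants that have lost Pax7 stay labelled. Sham muscle was plantaris from legs with a skin incision and intact tendons. Overloaded muscle was plantaris taken 4 days after the distal tendons of the neighbouring gastrocnemius and soleus were cut (tenotomy), so that the plantaris carried their load. YFP-positive cells were sorted into tubes of 100 cells, and 2 libraries a group were made by CEL-Seq2, which reads a short tag near the 3′ end of each transcript and counts molecules by unique molecular identifiers (UMIs). The age, sex and number of mice behind each tube are not given in the sources used here, so p-values measure only the spread between these libraries, which may be technical. Sequencing gave 269683 and 260488 UMIs for sham and 387955 and 483528 for overloaded MuSCs, or 2697, 2605, 3880 and 4835 UMIs per sorted cell.

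The markers fall into several kinds of protein. Calcr is the calcitonin receptor, a G protein-coupled receptor that binds collagen V on satellite cells and helps to keep them quiescent. Cxcr4 is the receptor of the chemokine Cxcl12. Vcam1 and Ncam1 are adhesion molecules of the immunoglobulin family, Cd34 is a sialomucin, Chodl (chondrolectin) is a membrane protein with a C-type lectin domain, and Sdc3 and Sdc4 are syndecans, which carry heparan sulfate and act as coreceptors for growth factors. Megf10 is a scavenger receptor-like protein with EGF repeats, and Ngfr is the low-affinity (p75) receptor of neurotrophins. In adult muscle, satellite cells leaving quiescence are known to lower Calcr and Cd34 transcripts.

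The label of the cells was checked on transcription factors that define them. Pax7 gave 118 and 107 UMIs in sham and 108 and 137 in overloaded MuSCs, and Myf5 gave 244, 168, 388 and 467. Both were thus detected in every library.

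The 3 markers whose UMIs fell most, Calcr, Cd34 and Chodl, are shown by the start of the gene, because they are the ones that were lower on every scale used below. The windows are RefSeq's, from 250 bases before to 50 bases after an annotated transcription start, on build GRCm38.p6, written 5′ to 3′ on the strand of the gene. Capitals mark matches, on either strand, to TGGGAA, the core bound by Rbpj in Notch signaling, and to CANNTG, the E-box bound by myogenic factors such as MyoD. For Calcr, on the minus strand, RefSeq gave 2 starts, at chr6:3763574-3763873 and chr6:3764664-3764963. For Cd34 the window was chr1:194938571-194938870 and for Chodl chr16:78930698-78930997, both on the plus strand.
Calcr, first window: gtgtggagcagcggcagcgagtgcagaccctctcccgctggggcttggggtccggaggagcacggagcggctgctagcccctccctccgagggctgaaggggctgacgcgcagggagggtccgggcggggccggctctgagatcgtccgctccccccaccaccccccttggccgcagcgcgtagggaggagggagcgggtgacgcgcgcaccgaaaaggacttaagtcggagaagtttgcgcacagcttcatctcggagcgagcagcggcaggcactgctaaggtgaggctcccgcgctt
Calcr, other window: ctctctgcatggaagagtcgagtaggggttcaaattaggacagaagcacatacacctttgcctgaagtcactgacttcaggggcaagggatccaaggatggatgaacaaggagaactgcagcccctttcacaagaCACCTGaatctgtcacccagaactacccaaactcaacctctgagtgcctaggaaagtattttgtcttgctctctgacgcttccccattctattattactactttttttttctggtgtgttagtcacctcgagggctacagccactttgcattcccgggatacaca
Cd34: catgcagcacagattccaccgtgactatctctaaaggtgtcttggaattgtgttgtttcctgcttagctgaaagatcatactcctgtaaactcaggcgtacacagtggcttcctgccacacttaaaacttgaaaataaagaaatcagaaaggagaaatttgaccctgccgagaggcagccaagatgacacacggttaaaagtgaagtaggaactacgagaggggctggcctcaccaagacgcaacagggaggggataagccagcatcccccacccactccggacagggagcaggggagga
Chodl: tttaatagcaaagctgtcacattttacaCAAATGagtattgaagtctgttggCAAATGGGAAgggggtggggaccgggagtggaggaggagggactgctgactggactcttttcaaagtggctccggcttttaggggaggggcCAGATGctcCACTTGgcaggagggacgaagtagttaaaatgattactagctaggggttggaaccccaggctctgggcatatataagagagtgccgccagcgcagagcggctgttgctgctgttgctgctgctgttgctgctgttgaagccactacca

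The Chodl window held 1 TGGGAA and 4 CANNTG matches, 1 of which overlapped the TGGGAA. The first Calcr window and the Cd34 window held neither motif, and the other Calcr window held 1 CANNTG. Of 32851 RefSeq promoter windows of this length, 25.6% held TGGGAA and 72.3% held CANNTG. The first Calcr window was rich in CG, with 29 CG dinucleotides, and the other had 4. The Cd34 window had 7 and the Chodl window 6, against a median of 7 over all windows. Among the other markers with a RefSeq window, those of Sdc3 (44 CG), Ngfr (23), Sdc4 (22) and Cxcr4 (20) were above that median. The 3′ tags do not tell which start a Calcr transcript came from, and a match is a description of the letters, not a binding site.

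The plot of UMIs in each library shows all 10 markers as counted, before any scaling. Together they took 1131 and 982 UMIs in the sham libraries and 1104 and 1166 in the overloaded libraries, which was 0.419% and 0.377% against 0.285% and 0.241% of the library. The summed UMIs of the markers therefore overlapped between the groups, and their share of the library did not.

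**Figure D1:**
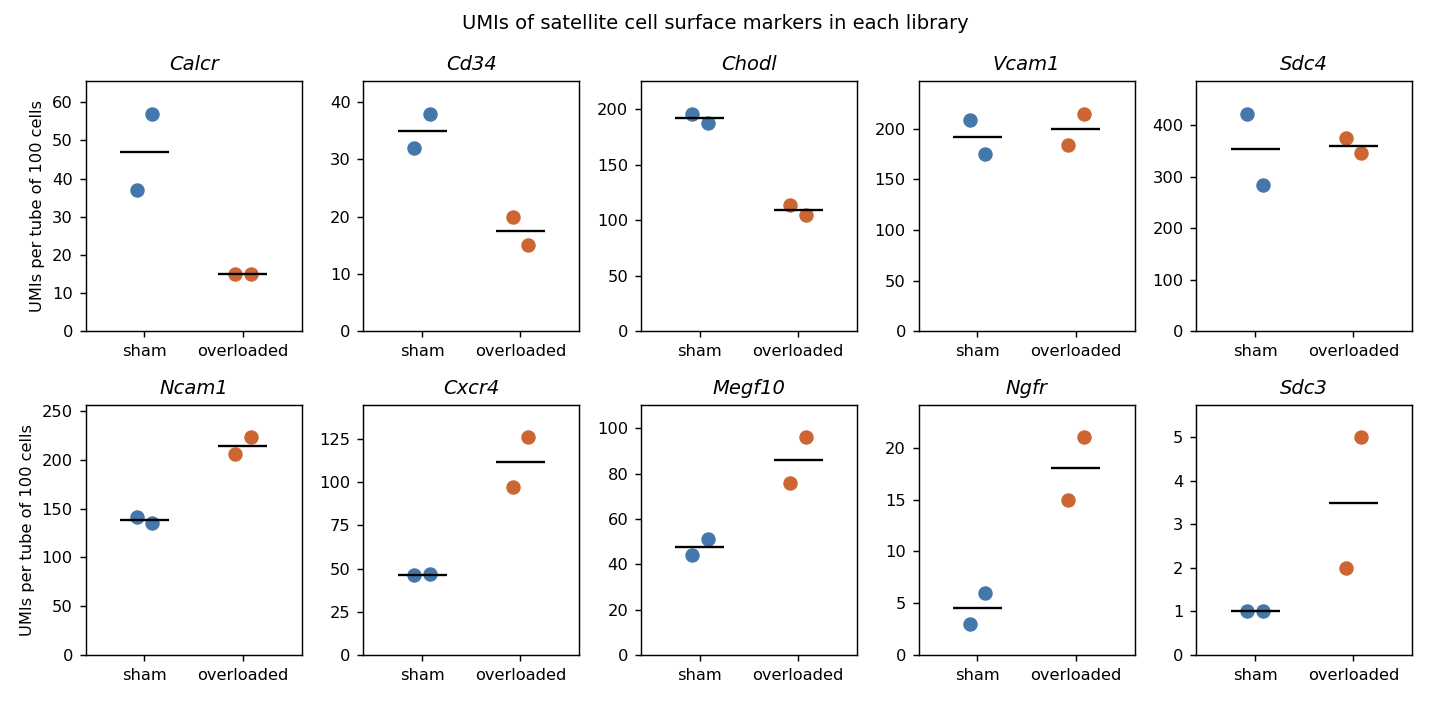
UMIs of each marker (vertical axis, UMIs per tube of 100 cells, scale set for each gene) in the sham (blue) and overloaded (orange) libraries, with a line at the mean of each group. Calcr, Cd34 and Chodl lie lower in both overloaded libraries, Cxcr4, Ncam1, Megf10, Ngfr and Sdc3 lie higher, and Vcam1 and Sdc4 overlap.

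To compare groups, UMIs were turned into CPM, a library's counts scaled to a fixed sum over the tested genes after correction of library sizes by the TMM method, and tested with edgeR's quasi-likelihood test at a Benjamini-Hochberg adjusted p of 0.1. A CPM value is thus a level relative to the other transcripts. Since the overloaded tubes gave more UMIs from as many cells, UMIs per tube of 100 cells are given as another scale. On it the median gene was 1.01 higher (log2) in overloaded MuSCs. The yield of a tube also depends on RNA capture and sequencing depth. How far it reflects the RNA held by the cells was not tested. Of the 10 markers, 9 had enough counts to be tested, and 5 of these were lower, 1 was higher and 3 did not pass. Among all 7228 tested genes, 26.3% were lower and 25.8% were higher, and the median log2 fold change was 0.051 against -0.90 over the 9 markers. Per tube, the markers' median was 0.055 against 1.01. That scale shifts all genes by a like amount, so this gap is not a separate result. With the abundance offsets described below, the markers' median was not below that of all tested genes, at 0.089 against 0.012. The CPM of the groups did not overlap for 8 of the 9 markers, and neither did they for 72.9% of all tested genes.

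The receptor Calcr had the largest fold of the 9 tested markers relative to the other transcripts. It gave 37 and 57 UMIs in the sham and 15 and 15 in the overloaded libraries. Both overloaded values were below both sham values. Its mean was 210 ± 68.7 CPM in sham and 34.7 ± 6.10 CPM in overloaded MuSCs (SD, n = 2 each). The log2 fold change was -2.60 (SE 0.32, 95% interval -3.28 to -1.94, edgeR adjusted p = 6.76e-06), or 6.05-fold lower. Ordered by mean CPM, it went from place 1398 of all genes in the file to place 6680. In bulk tubes such as these, fewer cells with a transcript and fewer transcripts per cell cannot be told apart.

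Cd34, the sialomucin by which quiescent satellite cells are often sorted, gave 32 and 38 UMIs in sham and 20 and 15 in overloaded MuSCs, again with no overlap. Mean levels were 156 ± 23.2 and 41.2 ± 15.3 CPM (SD, n = 2 each), which gave a fold of -1.95 on the log2 scale (SE 0.33, 95% interval -2.64 to -1.27, edgeR adjusted p = 0.000151), or 3.85-fold lower. On the opposite strand, 148 exonic bases are shared with Gm16897, which gave 0, 0, 1 and 4 UMIs, and the strand setting of the counting is not given in the sources used here.

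Chodl was more abundant than these. It gave 196 and 188 UMIs in sham and 114 and 105 in overloaded MuSCs. Both overloaded libraries were lower. Scaled to CPM, sham MuSCs had 852 ± 1.07 and overloaded MuSCs 255 ± 59.2 (SD, n = 2 each), or -1.76 on the log2 scale (SE 0.18, 95% interval -2.14 to -1.38, edgeR adjusted p = 1.1e-06). It went from place 142 of the genes in the file, ordered by CPM, to place 772.

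These 3 markers were also lower per tube, where few genes were. With UMIs per tube as the scale, the log2 fold change was -1.64 for Calcr (edgeR adjusted p = 0.00196), -0.99 for Cd34 (0.0338) and -0.81 for Chodl (0.00132). On that scale 4.58% of tested genes were lower and 62% were higher. It shifts all genes by a like amount, so these calls are not separate from those relative to the other transcripts. Counted without any test, both overloaded libraries were below both sham libraries in UMIs for 3 of the 9 markers and above them for 4, against 7.9% and 72.7% of all tested genes.

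Vcam1 and Sdc4 were lower relative to the other transcripts, but not per tube. Vcam1, the ligand of integrin α4β1, gave 209 and 175 UMIs in sham and 184 and 215 in overloaded MuSCs. The UMIs of the groups overlapped. Scaled to CPM, the groups stood apart at 851 ± 82.7 and 457 ± 30.4 (SD, n = 2 each). This was a log2 fold change of -0.90 (SE 0.16, 95% interval -1.24 to -0.56, edgeR adjusted p = 0.00027), while per tube the fold change was 0.055 (adjusted p = 0.788).

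Sdc4, the most abundant of the markers in both groups, gave 422 and 284 UMIs in sham and 375 and 345 in overloaded MuSCs. The overloaded values lay between the sham values. Mean levels were 1562 ± 389 CPM in sham and 837 ± 195 CPM in overloaded MuSCs (SD, n = 2 each). The log2 fold change was -0.91 (SE 0.19, 95% interval -1.32 to -0.50, edgeR adjusted p = 0.0012), and per tube it was 0.028 (adjusted p = 0.885). It held place 32 of the genes in the file by CPM in both groups.

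In the plot of all tested genes, the folds of many abundant genes lay below 0. When each library was given an offset that follows abundance (a loess curve of the log2 counts against the mean), 23.5% of genes were higher and 23.6% lower. On that scale Calcr (-2.70, edgeR adjusted p = 2.13e-06), Cd34 (-2.09, 5.39e-05) and Chodl (-0.98, 4.54e-05) were again lower as log2 fold changes. Vcam1 (-0.030, adjusted p = 0.884) and Sdc4 (0.19, adjusted p = 0.308) did not pass.

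**Figure D2:**
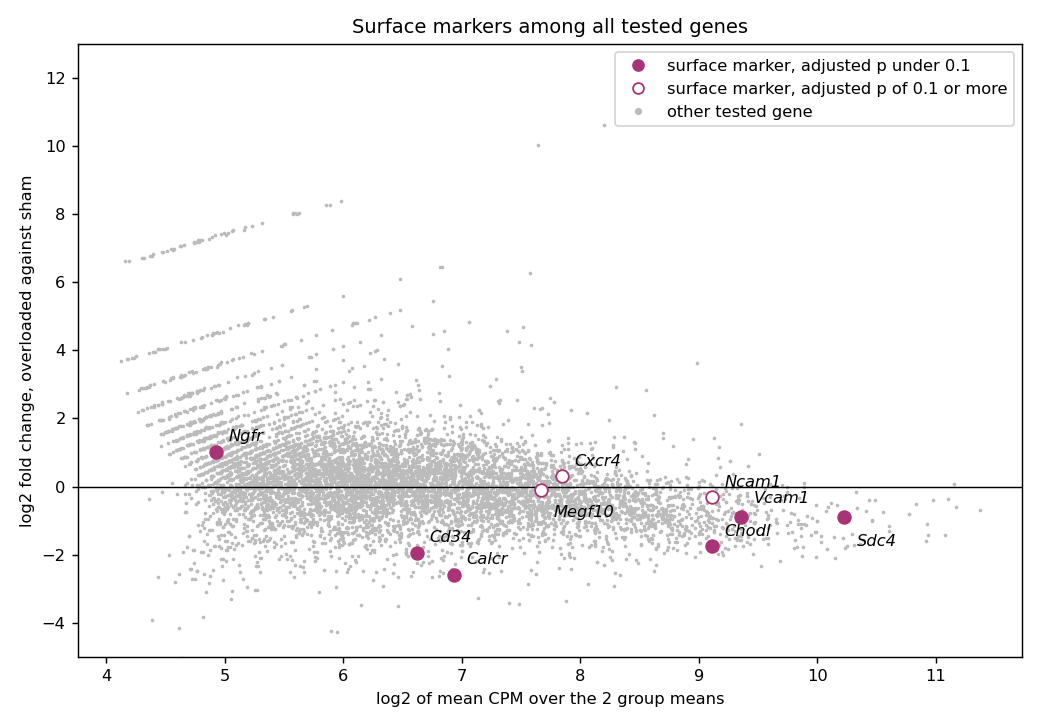
Log2 fold change of overloaded against sham MuSCs (vertical axis) by abundance (horizontal axis, log2 of the mean CPM of both groups) for the tested genes (grey, with 2 outside the range drawn) and the 9 tested markers (purple, filled where the adjusted p was under 0.1). Calcr, Cd34 and Chodl lie between -2.60 and -1.76, and Sdc4 and Vcam1, at -0.91 and -0.90, lie among many abundant genes below 0.

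Ncam1, Cxcr4 and Megf10 did not pass the test relative to the other transcripts, and had more UMIs per tube. Ncam1, the neural cell adhesion molecule, gave 141 and 135 UMIs in sham and 206 and 223 in overloaded MuSCs. Both overloaded values were higher as UMIs and lower as CPM, at 613 ± 1.55 against 494 ± 59.4 (SD, n = 2 each). The log2 fold change was -0.32 (SE 0.16, 95% interval -0.66 to 0.027, edgeR adjusted p = 0.125) relative to the other transcripts, 0.64 per tube (adjusted p = 0.00436) and 0.47 with abundance offsets (adjusted p = 0.01). Without overloaded replicate 1 it was called lower relative to the other transcripts (-0.42, adjusted p = 0.0137). It shares 417 exonic bases with Gm11149 on the opposite strand, which gave 1, 0, 6 and 3 UMIs.

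Cxcr4 gave 46 and 47 UMIs in sham and 97 and 126 in overloaded MuSCs. The groups did not overlap as UMIs or as CPM, at 207 ± 8.97 and 254 ± 2.08 (SD, n = 2 each). The log2 fold change was 0.30 (SE 0.19, 95% interval -0.098 to 0.69, edgeR adjusted p = 0.211). It was 1.26 per tube (adjusted p = 0.00069) and 0.58 with abundance offsets (adjusted p = 0.0198).

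Megf10 gave 44 and 51 UMIs in sham and 76 and 96 in overloaded MuSCs. It was the 1 tested marker whose CPM overlapped between the groups, at 211 ± 27.9 and 196 ± 2.26 (SD, n = 2 each). The log2 fold change was -0.11 (SE 0.20, 95% interval -0.53 to 0.31, edgeR adjusted p = 0.69), and 0.089 with abundance offsets (adjusted p = 0.753). Per tube it was 0.85 (adjusted p = 0.0134), which was below the median gene's 1.01.

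**Figure D3:**
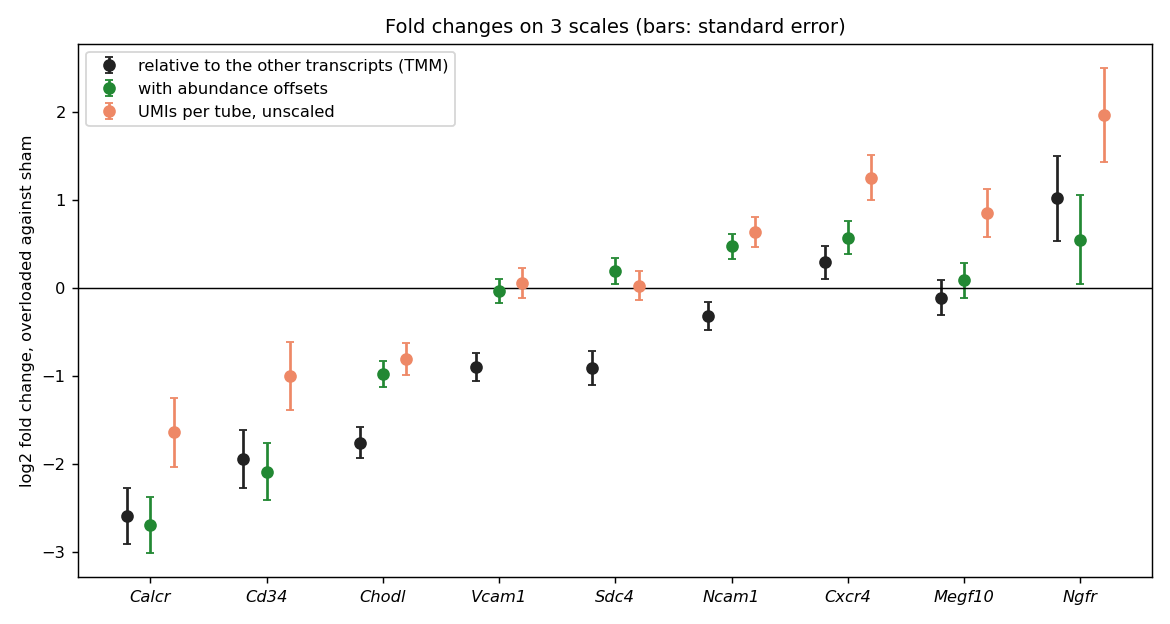
Log2 fold change of overloaded against sham MuSCs (vertical axis) with its SE for the 9 tested markers on 3 scales, relative to the other transcripts (black), with abundance offsets (green) and as UMIs per tube (orange). Calcr, Cd34 and Chodl are below 0 on each scale, Cxcr4 and Ngfr are above 0 on each, and Vcam1, Sdc4, Ncam1 and Megf10 change sign.

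Ngfr and Sdc3 were scarce. Ngfr gave 3 and 6 UMIs in sham and 15 and 21 in overloaded MuSCs, and it passed the filter on low counts only through the overloaded libraries. Its level was 20.1 ± 9.99 against 40.8 ± 2.49 CPM (SD, n = 2 each), with a log2 fold change of 1.02 (SE 0.48, 95% interval 0.016 to 2.05, edgeR adjusted p = 0.0919). DESeq2 did not call it (adjusted p = 0.456), it was not called with abundance offsets (0.55, adjusted p = 0.399), and no call was left after any 1 library was removed (log2 fold changes of 0.55 to 1.58). The ratio of its summed counts was 2.05, with an exact 95% interval of 0.970 to 4.84 that covers counting error only.

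Sdc3 gave 1 and 1 UMIs in sham and 2 and 5 in overloaded MuSCs and was not tested. On the opposite strand, it shares 415 exonic bases with Gm26716 and 48 with Gm12970, and Vcam1 shares 61 with Gm43109. The ratio for Sdc3, 1.79 after scaling, had an exact 95% counting interval of 0.342 to 17.7, so that no difference was detectable at this depth. In the sham libraries, 1 UMI was worth 4.35 and 4.53 CPM. Sdc4 gave 422 and 284 UMIs for each UMI of Sdc3 in the sham libraries, and 187.5 and 69 in the overloaded libraries.

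Each molecule gives 1 tag, so that CPM was compared between markers without dividing by transcript length, although how well a tag is captured may still differ between genes. In sham MuSCs, Sdc4 was highest, followed by Chodl and Vcam1 (852 and 851 CPM, with overlapping ranges of mean ± SD), Ncam1, a group of Megf10, Calcr and Cxcr4 (211, 210 and 207 CPM, with overlapping ranges of mean ± SD), Cd34 (156 CPM, its range overlapping that of Calcr but not those of Megf10 or Cxcr4), Ngfr and Sdc3. In overloaded MuSCs, Sdc4 was again highest, followed by Ncam1 and Vcam1 (494 and 457 CPM, with overlapping ranges of mean ± SD), Chodl and Cxcr4 (255 and 254 CPM, with overlapping ranges of mean ± SD), Megf10 (196 CPM, its range overlapping that of Chodl but not that of Cxcr4), and then Cd34, Ngfr and Calcr (41.2, 40.8 and 34.7 CPM, with overlapping ranges of mean ± SD). The make-up of the markers was thus shifted. Of all marker UMIs, Chodl took 17.3% and 19.1% in sham and 10.3% and 9.01% in overloaded MuSCs, and Ncam1 took 12.5% and 13.7% against 18.7% and 19.1%.

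Ratios of UMIs between markers within a library need no scaling between libraries. These pairs were chosen after the values were seen and are given with no test. There were 1.24 and 0.825 UMIs of Cxcr4 for each UMI of Calcr in the sham libraries, and 6.47 and 8.40 in the overloaded libraries. For each UMI of Cd34 there were 4.41 and 3.55 UMIs of Ncam1 against 10.3 and 14.9. For each UMI of Chodl there were 0.224 and 0.271 UMIs of Megf10 against 0.667 and 0.914, and 1.07 and 0.931 UMIs of Vcam1 against 1.61 and 2.05. In each pair the overloaded libraries were both above the sham libraries.

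**Figure D4:**
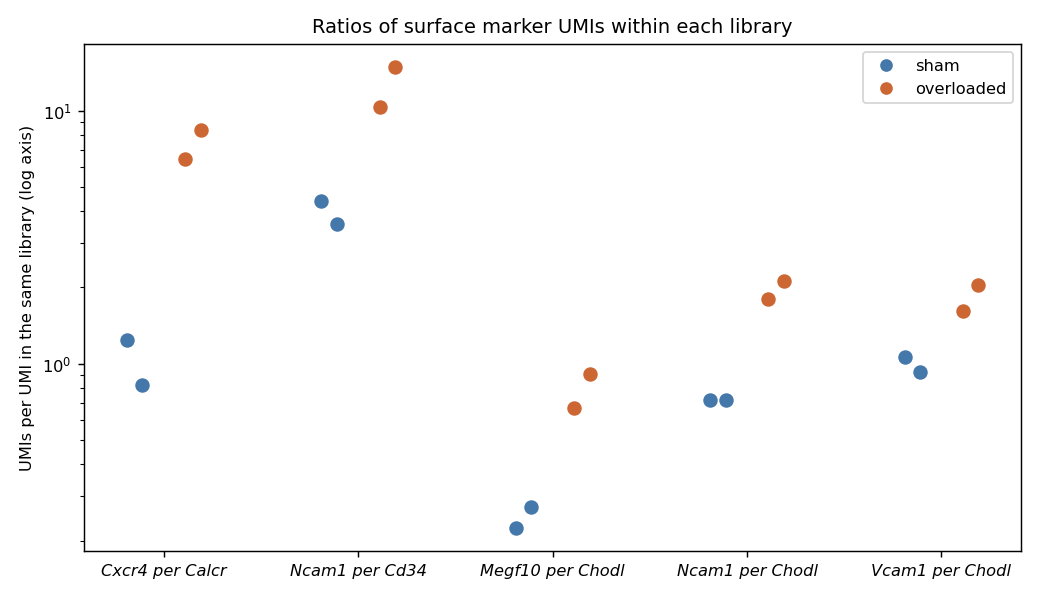
UMIs of 1 marker per UMI of another within each library (vertical axis, log scale) for 5 pairs, in sham (blue) and overloaded (orange) libraries. Both overloaded libraries lie above both sham libraries in each pair, and Cxcr4 per Calcr goes from 1.24 and 0.825 to 6.47 and 8.40.

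The genes whose log2(CPM + 1) over the 4 libraries lay nearest to each marker past the threshold were named by a fixed rule. Over 4 libraries in 2 groups, such likeness mostly reflects a like level and a like fold. Those of Calcr were Enpp2 (distance 0.328), Zbtb16 (0.386) and Psd (0.545). Those of Chodl were Slc39a14 (0.188), Tsc22d2 (0.290) and Dnajb1 (0.293). Those of Vcam1 began with Nfia (0.124) and Pdpn (0.155), and those of Cd34 with Rbm4b (0.411) and Mlxip (0.430). The nearest to Sdc4 were Hspb1, Rps26 and Rpl5, and the nearest to Ngfr included Fbxl12 and Atg2b.

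Ligands, coreceptors and modifying enzymes of the markers were followed as a list of 24 genes, of which 17 were tested, 7 were higher and 3 were lower, against 25.8% and 26.3% of all tested genes, with a median log2 fold change of 0.29 against 0.051 over all. Per tube 13 were higher and 0 lower, and with abundance offsets 9 were higher and 3 lower. Hs2st1 was 1 of the 7 (log2 fold change 0.47, edgeR adjusted p = 0.0903). It was not called with the replicate block (adjusted p = 0.113) or in any fit without 1 library (0.38 to 0.54). Of the 7, Fn1, St8sia2 and Adam10 passed the filter on low counts only through the overloaded libraries, where they were high. Fn1, the fibronectin bound by syndecans, gave 1 and 3 UMIs in sham and 94 and 99 in overloaded MuSCs (log2 fold change 4.58, edgeR adjusted p = 4.61e-07), a fold that rests on 4 sham UMIs. Cxcl12, the ligand of Cxcr4, gave 17, 10, 53 and 59 UMIs and was higher (1.09, adjusted p = 0.00834). St8sia2, a polysialyltransferase that modifies Ncam1, gave 0 and 2 against 18 and 39 UMIs, a ratio of 14.6 after scaling (95% counting interval 3.86 to 124, edgeR adjusted p = 0.000584). The call of Cxcl12 was lost without sham replicate 2 (0.75, adjusted p = 0.122), and the log2 fold change of Fn1 was 3.96 without sham replicate 1 and 5.52 without sham replicate 2. St8sia2, at 0 in 1 sham library, was called without either of them, with a log2 fold change of 2.75 without sham replicate 1 and no finite fold without sham replicate 2.

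Adam10, a protease that sheds surface proteins, was higher by 1.69 (edgeR adjusted p = 0.000834) and Adam17 by 0.71 (0.0616) on the log2 scale. Adam17 was not called with abundance offsets (0.57, adjusted p = 0.141). Among ligands of Ngfr, Bdnf was higher (0.86, adjusted p = 0.0102) and Ntf3 was lower relative to the other transcripts (-1.19, adjusted p = 0.0311) but not per tube (-0.23, adjusted p = 0.701), and it passed the filter only through the sham libraries. Col5a3, a chain of collagen V, was lower relative to the other transcripts (log2 fold change -1.06, adjusted p = 0.00024) but not per tube (-0.092, adjusted p = 0.764), whereas Col5a1 (-0.28, adjusted p = 0.169) and Col5a2 (-0.076, adjusted p = 0.735) did not pass. Sdcbp (syntenin), which binds the tails of syndecans, was lower relative to the other transcripts (-0.73, adjusted p = 0.00428) and 0.23 per tube. Itga4, the integrin chain that binds Vcam1, gave 1, 0, 8 and 10 UMIs and was not tested. Without sham replicate 2, the calls of Bdnf (0.51, adjusted p = 0.213) and Adam17 (0.49, adjusted p = 0.344) were lost, and Adam10 was at 1.08, against 2.69 without sham replicate 1. Without overloaded replicate 1, Adam17 was at 0.63 (adjusted p = 0.179) and Ntf3 at -0.77 (adjusted p = 0.253), and without sham replicate 1, Ntf3 was at -1.21 (adjusted p = 0.111).

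Members of the same families numbered 14, of which 4 were tested, with 2 higher and 1 lower, against 25.8% and 26.3% of all tested genes, and a median log2 fold change of 0.34. Podxl passed the filter on low counts only through the overloaded libraries, where it was high. Podxl, a sialomucin related to Cd34, gave 0 and 2 UMIs in sham and 15 and 17 in overloaded MuSCs, a ratio of 8.21 (95% counting interval 2.09 to 70.7, edgeR adjusted p = 0.00347). Ackr3, the other receptor of Cxcl12, gave 101 and 87 UMIs in sham and 56 and 64 in overloaded MuSCs and was lower (log2 fold change -1.60, adjusted p = 4.02e-06). Sdc1 was higher (0.88, adjusted p = 0.0228), and Sdc2 did not pass (-0.20, adjusted p = 0.441). Calcrl, the nearest relative of Calcr, gave 0, 2, 4 and 5 UMIs. The call of Podxl was lost without sham replicate 1 (1.94, adjusted p = 0.105), it was called without sham replicate 2, with no finite fold since the remaining sham library was at 0, and it was not tested without overloaded replicate 1. The call of Sdc1 was lost without sham replicate 2 (0.42, adjusted p = 0.371; 1.49 without sham replicate 1).

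Of 12 further surface proteins of satellite cells, 11 were tested, 3 were higher and 7 were lower, against 25.8% and 26.3% of all tested genes, with a median log2 fold change of -0.58. With abundance offsets 5 were higher and 4 lower, with a median of 0.19, and per tube 6 were higher and 2 lower, with a median of 0.38. The lower ones were led by Tenm4 (log2 fold change -1.69, edgeR adjusted p = 2.19e-06), a teneurin, and the receptor Fgfr1 (-1.54, adjusted p = 1.85e-06), with 93, 99, 53 and 63 and with 242, 232, 155 and 160 UMIs. Tek (-1.41, adjusted p = 0.0154), the receptor of angiopoietins, and the tetraspanin Cd82 (-0.96, adjusted p = 0.000364) followed relative to the other transcripts, but neither was called per tube (-0.45, adjusted p = 0.451, and -0.0073, adjusted p = 0.98). Tek passed the filter on low counts only through the sham libraries. Fgfr4 was lower relative to the other transcripts (-0.80, adjusted p = 0.00132), but not per tube (0.16, adjusted p = 0.526) or with abundance offsets (-0.22, adjusted p = 0.289). The tetraspanin Cd9 (-0.58, adjusted p = 0.00857) and Cav1 (-0.37, adjusted p = 0.0651) were likewise lower relative to the other transcripts, but were called higher per tube (0.38, adjusted p = 0.0814, and 0.59, adjusted p = 0.00588). With abundance offsets Cav1 was called higher too (0.50, adjusted p = 0.00598), and Cd9 did not pass (0.19, adjusted p = 0.312). Met, the receptor of hepatocyte growth factor, was higher (1.03, adjusted p = 0.00267), as were Itga7 (0.67, adjusted p = 0.00355), the laminin-binding integrin chain, and Cdh15 (0.47, adjusted p = 0.049), M-cadherin. Calls were lost for Itga7 without sham replicate 2 (0.57, adjusted p = 0.114), for Cd9 without sham replicate 1 (-0.50, adjusted p = 0.133), and for Tek without sham replicate 2 (-1.29, adjusted p = 0.204) or overloaded replicate 1 (-1.10, adjusted p = 0.200). Cdh15 was called without overloaded replicate 2 but not without any other library (0.35 to 0.51), and Cav1 without overloaded replicate 1 but not without any other (-0.42 to -0.27). Over the 3 lists together, 32 genes were tested, 12 were higher and 11 lower, against 25.8% and 26.3% of all tested genes. By the DESeq2 test, the calls of Podxl (adjusted p = 0.102), Sdc1 (0.201), Cxcl12 (0.125), Bdnf (0.132), Adam17 (0.345), Hs2st1 (0.443) and Cdh15 (0.287) as higher and of Tek (0.216), Ntf3 (0.246) and Cav1 (0.26) as lower were lost.

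Several of the markers are also known in other cells of muscle, Cd34 in endothelial and fibro-adipogenic cells, Vcam1 in endothelial cells and Ngfr in Schwann cells. In the order sham 1, sham 2, overloaded 1 and overloaded 2, 8 endothelial markers summed to 18, 8, 44 and 54 UMIs, or 78.4, 36.2, 114 and 109 CPM. In sham, Flt1 was the most abundant and Cldn5 and Egfl7 were at 0. In overloaded MuSCs, the mean of Cdh5 (29.3 CPM) was above that of Flt1 (23.4 CPM). The endothelial sum was higher in both overloaded libraries as UMIs and as CPM. Of 8 fibro-adipogenic markers, which summed to 939, 868, 1230 and 1363 UMIs, or 4087, 3932, 3198 and 2760 CPM, Col3a1 was the most abundant, 5 were tested, 1 was higher and 3 were lower, against 25.8% and 26.3% of all tested genes, but with abundance offsets 3 were higher and 1 was lower. Of the 8, Pdgfra was at 0 in sham and gave 2 and 0 UMIs in overloaded MuSCs, and Ly6a, the 1 called higher, gave 1, 0, 22 and 41 and passed the filter on low counts only through the overloaded libraries. Those called lower were Dpt, with 131, 126, 82 and 104 UMIs (log2 fold change -1.43, edgeR adjusted p = 4.59e-06), Col3a1 (-0.53, adjusted p = 0.013) and Dcn (-0.38, adjusted p = 0.0851). The part of such cells in the change of Cd34 or Vcam1 was not tested.

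The 8 Schwann cell markers, of which 7 were in the file, summed to 34, 33, 44 and 44 UMIs, or 148, 149, 114 and 89.1 CPM. Scn7a, the most abundant and the 1 that was tested, gave 63 UMIs over both sham and 74 over both overloaded libraries and was lower relative to the other transcripts (log2 fold change -0.73, edgeR adjusted p = 0.0293) but not per tube (0.23, adjusted p = 0.567), and Mbp, Cdh19 and Egfl8 were among those at 0 in sham. The 6 mural markers summed to 177, 159, 467 and 663 UMIs, or 770, 720, 1214 and 1343 CPM, most of them Acta2. Of these 6, 4 were tested, and 2 were higher and 1 was lower, against 25.8% and 26.3% of all tested genes. Acta2 and Rgs5 were higher, and Tagln was lower (log2 fold change -0.61, edgeR adjusted p = 0.0453). Rgs5, with 13, 4, 38 and 86 UMIs, passed the filter on low counts only through the overloaded libraries. The 8 leukocyte markers summed to 2, 5, 59 and 119 UMIs, or 8.71, 22.7, 153 and 241 CPM, with Lyz2 the most abundant in overloaded MuSCs, Ptprc at 0, 1, 1 and 4 and 6 of the 8, Lyz2 among them, at 0 in sham. The 8 myofiber markers summed to 390, 199, 1195 and 1441 UMIs, or 1698, 901, 3107 and 2918 CPM, with Acta1 the most abundant, and all 6 that were tested were higher, against 25.8% of all tested genes. Myh4, 1 of the 6, gave 10, 5, 145 and 79 UMIs and passed the filter on low counts only through the overloaded libraries. The mural, leukocyte and myofiber sums were higher in both overloaded libraries as UMIs and as CPM, whereas the Schwann cell sum was higher as UMIs and lower as CPM. The part of such cells in the values of Ngfr, Cxcr4, Ncam1, Megf10 and Sdc3, which had more UMIs in both overloaded libraries, was not tested.

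In the genome (GRCm38, GENCODE M21), Calcr lies at chr6:3685680-3764714, with the microRNA genes Mir653 and Mir489 inside it, Cd34 at chr1:194938819-194961279 and Chodl at chr16:78930948-78951733. Vcam1 lies at chr3:116109949-116129688, Ncam1 at chr9:49502136-49798925, Cxcr4 at chr1:128588199-128592293, Sdc4 at chr2:164424247-164443887, Sdc3 at chr4:130792537-130826319 and Ngfr at chr11:95568818-95587735. Megf10 is on chromosome 18. The coding transcripts of Ncam1 have 6 different annotated 3′ ends and those of Calcr and Chodl 4 each, and tags at all of these were summed in the count of the gene.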

How the data were processed

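RNA was measured in 4 libraries of 100 sorted YFP-positive MuSCs. The authors extracted barcodes and UMIs with UMI-tools (version 1.0.0), aligned reads to GRCm38 with HISAT2 (version 2.1.0), assigned them to genes with featureCounts (version 1.6.4) and deposited unnormalized counts, the number of distinct UMIs of each gene in each library. UMIs had 6 bases, or 4096 possible sequences, so that different molecules of abundant genes can share a UMI and their counts may be slightly low. The annotation release and strand setting are not given in the sources used here.

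Genes were taken by symbol, and all 19353 identifiers matched GENCODE M21. Genes were filtered with filterByExpr (minimum count 10, minimum total 15), scaled by TMM and tested with glmQLFit and glmQLFTest of edgeR (version 4.0.16, R version 4.3.3), overloaded against sham, on the 7228 genes kept. P-values were adjusted by Benjamini-Hochberg over these genes, with a threshold of 0.1. The SE of a fold change was the fold change divided by the square root of its F value. Replicates differed by 1.31 (sham) and 1.50 (overloaded) chi-square per degree of freedom, and the common biological coefficient of variation was 9.50%. With 2 libraries a group, a permutation test of a single gene cannot go below p = 0.333. Intervals of count ratios were exact binomial and cover counting error only.

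The named genes were every marker, members of the lists past the threshold, their most abundant and defining genes, and for each marker past the threshold the 3 nearest tested genes by Euclidean distance of log2(CPM + 1). Col5a2, Sdc2, Itga4 and Calcrl, outside this rule, were added for their tie to a marker, with values seen. A few genes of the lists are not reported here. The markers and lists were chosen with earlier results of these data known. Alternatives were DESeq2 (version 1.42.0) size factors and test, library sizes alone, UMIs per tube, abundance offsets (loess span 0.3), other filters, a threshold of 0.05, a replicate block, counts thinned to 260488 UMIs per library and leaving out each library, where the lone library of a group was assumed to vary like the other group. The test was tried on simulated counts, and no result of that trial is used here.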

Additional observations from a re-analysis of the deposited data

How the results depend on the processing

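Of the markers called lower, Calcr, Cd34 and Chodl kept their direction and call under every alternative run, with log2 fold changes over the leave-one-out fits of -2.94 to -2.26, -2.32 to -1.53 and -1.98 to -1.48. The count of markers called lower (5) was 3 with UMIs per tube and 3 with abundance offsets. The count called higher (1, Ngfr, unadjusted p = 0.0468) was 2 with library sizes alone, 4 with UMIs per tube, 2 with abundance offsets, and 0 with the DESeq2 test, with no filter, with at least 10 counts in each library of a group, with a threshold of 0.05, with thinned counts and with the replicate block, and 0 to 0 over the fits without 1 library. UMIs per tube set the median of all tested genes at 1.01 (4481 higher and 331 lower, 93.1% of calls higher) and library sizes alone at 0.33 (66.6% higher), against 0.051 (1868 higher and 1898 lower); the DESeq2 test called 762 higher and 1049 lower. Of the related genes (12 higher, 11 lower), 22 were higher and 3 lower per tube, 5 were higher with the DESeq2 test, and 6 to 12 were higher without 1 library, the lowest without sham replicate 2. The log2 fold change changed sign per tube for Vcam1 (0.055), Sdc4 (0.028), Megf10 (0.85), Ncam1 (0.64), Cd9 (0.38), Cav1 (0.59), Fgfr4 (0.16) and Sdcbp (0.23), with abundance offsets for Sdc4 (0.19), Megf10 (0.089), Ncam1 (0.47), Cd9 (0.19) and Cav1 (0.50), and with library sizes alone for Megf10 (0.17). Ncam1 was called lower without overloaded replicate 1 (-0.42, adjusted p = 0.0137) and with at least 10 counts in each library of a group (-0.39, adjusted p = 0.0579). The cause of these changes was not tested.

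Whether libraries with the same number came from the same mouse is not given in the sources used here. The log2 CPM difference of replicate 1 from replicate 2 was taken in each group. Over the tested genes, the sham and overloaded differences did not move together (correlation -0.034), so libraries were not treated as paired. With the replicate block, Ngfr had a log2 fold change of 1.01 (adjusted p = 0.144). Counts under 10 in a library, as for Ngfr in sham and Sdc3, limit what could be seen.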

Other observations

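Of 6 transcription factors of satellite cells, 5 were tested, and 1 was higher and 1 lower, against 25.8% and 26.3% of all tested genes. Six4, a homeobox factor that acts on myogenic genes, gave 28, 22, 72 and 112 UMIs in the order sham 1, sham 2, overloaded 1 and overloaded 2, and was higher (log2 fold change 0.91, edgeR adjusted p = 0.00459). Pax7 was lower relative to the other transcripts (-0.84, adjusted p = 0.000635), but not per tube (0.12, adjusted p = 0.619) or with abundance offsets (-0.24, adjusted p = 0.237). Myf5 (0.10, adjusted p = 0.675) and Myod1 (0.29, adjusted p = 0.171) did not pass relative to the other transcripts and were higher with abundance offsets (1.12, adjusted p = 6.72e-06, and 0.94, adjusted p = 9.16e-05), and Pax3 gave 8, 2, 2 and 4 UMIs and was not tested.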
